A study of Mus musculus with 10 samples.

Results

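The BCL2 family of survival and death genes was examined in hearts of mice that overexpress SPOP, a protein that brings substrates to a cullin-based ubiquitin ligase. Its members were taken by gene name: Bcl2, Bcl2l1, Mcl1, Bax, Bak1, Bbc3, Bid, Bcl2l11, Bnip3 and Bnip3l. All 10 were present among the 24888 genes of the deposited table, and all 10 passed the filter on low values. The tested hearts (SPOP_CKI, 5 libraries) carried SPOP overexpression driven by Cre recombinase from the alpha-myosin heavy chain promoter, which is active in cardiomyocytes. The control hearts (Cre_control, 5 libraries) are titled wild type, have the genotype Myh6Cre, and so carry the same Cre transgene without the overexpressed gene. No group without Cre was included in the comparison. All mice are labelled male, aged 8 to 10 weeks, in sham conditions. Poly(A) RNA of the heart was sequenced, so that every cell type of the heart contributes reads. The labels give no litter, batch or pooling, so each p-value rests on the spread among the deposited libraries, which may be technical.

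Proteins of this family decide whether the outer membrane of the mitochondrion stays closed. BAX and BAK1 form pores that release cytochrome c, while BCL2, BCL-XL (Bcl2l1) and MCL1 hold them in check. The BH3-only proteins BIM (Bcl2l11), PUMA (Bbc3) and BID tip that balance towards pore formation. BNIP3 and NIX (Bnip3l) lie in the same membrane, bind LC3-like proteins and mark mitochondria for mitophagy. Cardiomyocytes are rich in mitochondria and rarely divide, and loss of Mcl1 from them is known to cause cardiac failure in mice.

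Values below are scaled reads, that is, reads per gene divided by the size factor of the library. Depth lay between 15316293 and 17114869 reads per library. Spop, the overexpressed gene, averaged 31897 ± 6254 scaled reads in SPOP_CKI and 3425 ± 317 in Cre_control (SD, n = 5 each). Library SPOP_CKI 3 stood apart from all others. It had reads for 13167 genes, against 18531 to 20806 in any other library, and 1968 of the 14212 tested genes were at 0 in it, against at most 61 in any other. It was the lowest library for 36.7% of tested genes and the highest for 21.6%. Of the 10 members, 5 had their lowest value there. The correlation across tested genes of a library's deviation with transcript GC content was -0.40 in this library, between -0.14 and 0.04 in the other SPOP_CKI libraries and between 0.12 and 0.43 in Cre_control. Xist reads stood at 6491, 6578 and 4491 scaled reads in SPOP_CKI 1, SPOP_CKI 3 and Cre_control 5, and at no more than 5.31 in the others, which goes against the label male for those 3 libraries. Results are therefore also given without SPOP_CKI 3, and without the 3 libraries with Xist reads where that ends a call or makes one.

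Defining markers of ventricular muscle were present in every library, with summed levels of 323300 to 597100 scaled reads in SPOP_CKI and 527600 to 664000 in Cre_control. Of these 8 markers 1, Actc1, was higher and 2, Myh6 and Tnni3, were lower in SPOP_CKI. Mean scaled reads in SPOP_CKI and Cre_control were 156876 and 80820 for Actc1, 97162 and 249198 for Myh6, and 25708 and 55443 for Tnni3. Actc1 lost its call without the 3 libraries with Xist reads (limma adjusted p = 0.0762). All marker counts here are of calls at an adjusted p under 0.05 with all libraries, where 10.0% of all tested genes were higher and 12.3% lower. Without SPOP_CKI 3, 3 ventricular markers were lower, and 3 fibroblast markers and 1 macrophage marker were higher. Without the libraries with Xist reads, 3 endothelial markers were lower and 4 fibroblast markers higher. Of all tested genes, 13.7% were higher and 17.3% lower in the former fit, and 13.7% and 17.0% in the latter. Markers of other cell types also changed. The 3 erythroid markers, which are haemoglobin chains and a haem-synthesis enzyme, were all lower, with sums of 4168 to 7772 in SPOP_CKI and 12560 to 25990 in Cre_control. The 3 neutrophil markers were all higher, with sums of 157 to 653 in SPOP_CKI and 52.2 to 172 in Cre_control. Of the 6 endothelial markers 4 were lower, with sums of 13650 to 19100 in SPOP_CKI and 22090 to 25420 in Cre_control. Of the 6 macrophage markers 2 were higher, and the sums of 9843 and 11160 in SPOP_CKI 2 and SPOP_CKI 4 stood above the 2443 to 4637 of Cre_control, which held the other 3 SPOP_CKI sums. Of the 6 fibroblast and the 4 smooth muscle markers 1 each was higher, with sums of 25530 to 73180 and 7021 to 16210 in SPOP_CKI and 24890 to 28690 and 2147 to 3413 in Cre_control. The smooth muscle marker called was Acta2, which averaged 9252 in SPOP_CKI and 1511 in Cre_control. Myh11, Cnn1 and Tagln gave no call, with log2 fold changes of -0.21, -0.90 and -0.33. Without SPOP_CKI 3 these were -0.25, 0.34 and 0.45, again with no call. Of the 3 pericyte markers 1, Kcnj8, was lower, with sums of 15540 to 23720 in SPOP_CKI and 20420 to 27550 in Cre_control. Of the 4 atrial markers 2 were tested and 1, Nppa, which is also a ventricular stress gene, was higher, at 2753 to 18587 scaled reads in SPOP_CKI and 218 to 1377 in Cre_control. Myl4, an atrial light chain, stood at 364 in SPOP_CKI 1 and 1464 in Cre_control 1, against at most 134 in any other library, and Myl7 and Sln were also highest in those libraries. The 5 lymphocyte markers summed to 0 to 90.0 in SPOP_CKI, all at 0 in SPOP_CKI 3, and to 35.1 to 96.6 in Cre_control. In bulk tissue, fewer cells of a type and less RNA per cell cannot be told apart, and the part of these markers in the results on the members was not tested.

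The upstream sequences of the members whose level changed are shown because they are the part of each gene next to its start site, where the promoter lies. Each is the stretch of 250 bases before the RefSeq start site nearest to the 5′ end of the deposited gene (RefSeq table, build GRCm38.p6, 5′ to 3′ on the gene's strand). RefSeq entries were found for 9 of the 10 members. Capitals mark the letters GTAAACA, the forkhead box O (FOXO) motif, and ACGTG or GCGTG, the core bound by hypoxia-inducible factors, on either strand. Among 32851 promoter windows of the same length, GTAAACA was present in 3.17% and ACGTG or GCGTG in 38.6%.
Bcl2 (chr1:106714291-106714540, minus strand): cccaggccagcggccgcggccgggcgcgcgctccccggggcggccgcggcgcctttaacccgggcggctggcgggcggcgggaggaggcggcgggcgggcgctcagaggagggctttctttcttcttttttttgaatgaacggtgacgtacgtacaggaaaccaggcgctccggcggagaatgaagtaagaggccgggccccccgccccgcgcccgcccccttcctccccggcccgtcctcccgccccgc
Bcl2l1 (chr2:152831729-152831978, minus strand): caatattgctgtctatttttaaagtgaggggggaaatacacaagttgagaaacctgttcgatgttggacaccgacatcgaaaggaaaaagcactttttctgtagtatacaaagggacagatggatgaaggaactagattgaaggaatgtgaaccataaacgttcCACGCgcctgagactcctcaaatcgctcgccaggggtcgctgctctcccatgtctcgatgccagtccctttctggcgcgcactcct
Bcl2l11 (chr2:128125788-128126037, plus strand): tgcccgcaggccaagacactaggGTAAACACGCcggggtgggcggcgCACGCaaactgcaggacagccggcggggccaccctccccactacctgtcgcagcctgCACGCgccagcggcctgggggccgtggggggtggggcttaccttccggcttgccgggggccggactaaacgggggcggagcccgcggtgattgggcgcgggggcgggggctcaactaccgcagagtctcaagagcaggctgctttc
Bnip3 (chr7:138909507-138909756, minus strand): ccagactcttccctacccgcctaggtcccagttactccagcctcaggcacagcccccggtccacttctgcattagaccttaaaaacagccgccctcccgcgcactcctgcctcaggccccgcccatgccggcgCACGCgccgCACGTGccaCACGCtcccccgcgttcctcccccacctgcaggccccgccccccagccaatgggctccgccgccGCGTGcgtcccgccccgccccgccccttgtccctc
The Bcl2 window held neither of these motifs. The Bcl2l1 window held 1 hypoxia core. The Bcl2l11 window held 1 FOXO motif, which overlaps the first of its 3 hypoxia cores. RefSeq gives 3 start sites for Bcl2l1 and 2 for Bcl2l11, and the windows of these genes not shown held neither motif. The Bnip3 window held 5 hypoxia cores, and 2 of them are the overlapping strands of 1 CACGTG, the E-box, which was present in 6.02% of all windows. The GC box GGGCGG, found in 32.7% of all windows on either strand and not capitalised here, occurred 7 times in the Bcl2 window, 3 times in that of Bcl2l11, 6 times in that of Bnip3 and not in that of Bcl2l1. These motifs were not confined to the members shown. Of the uncalled members, the nearest windows of Bbc3 and Bax held 4 and 2 hypoxia cores, those of Bax within 1 CACGTG. Another Bbc3 window held 1 FOXO motif. The windows of Mcl1, Bak1 and Bid held neither motif. A match describes these letters in this window and is not evidence of a bound site.

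Among the members, Bcl2 rose and Bcl2l1, Bcl2l11 and Bnip3 fell in SPOP_CKI hearts. The count was thus 1 of 10 higher and 3 of 10 lower (limma on log2(value + 1), Benjamini-Hochberg adjusted p under 0.05 over all tested genes). Over all 14212 tested genes, 10.0% were higher, 12.3% were lower and 22.3% were called in either direction, so the members' shares are read against a comparison in which many genes moved. Without SPOP_CKI 3 the count was 2 higher and 4 lower, with Bid and Bbc3 added, against 13.7% and 17.3% of tested genes. Without the 3 libraries with Xist reads it was 2 and 3, with Bid and Bbc3 added and Bcl2l11 lost, against 13.7% and 17.0%. On recovered reads, edgeR called 1 and 3 members, against 11.8% and 10.4% of genes, and DESeq2 2 and 3, against 12.5% and 12.2%. The median log2 fold change of the members was -0.73 with all libraries and -0.19 without SPOP_CKI 3, beside -0.11 over all tested genes with all libraries. The groups did not overlap for Bcl2, with SPOP_CKI higher, as for 9.01% of tested genes, or for Bcl2l1 and Bnip3, with SPOP_CKI lower, as for 12.3%.

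**Figure D1:**
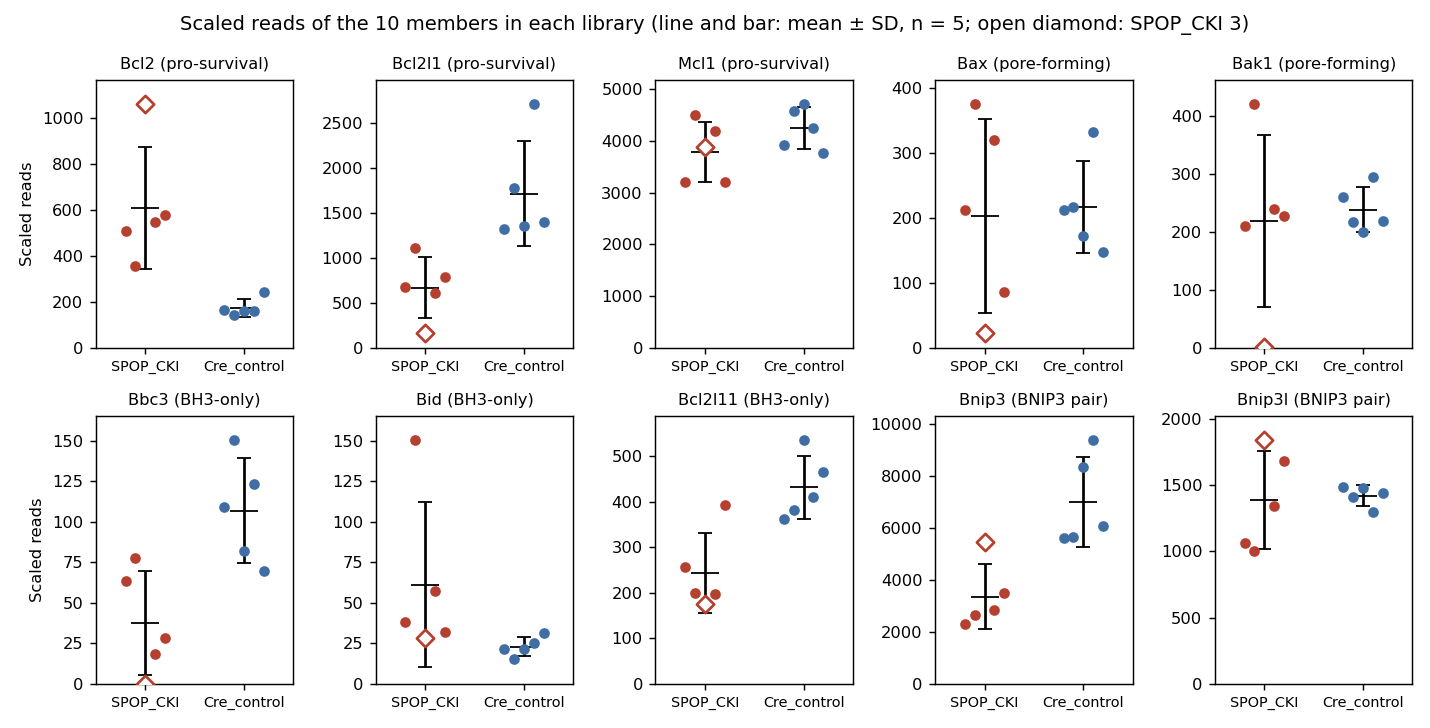
Scaled reads of each member (vertical axes, from 0) in every SPOP_CKI and Cre_control library, with SPOP_CKI left of Cre_control. Points are libraries, the line and bar give the mean ± SD of 5 libraries, and the open diamond is SPOP_CKI 3, which is the lowest point for Bcl2l1, Bax, Bak1, Bbc3 and Bcl2l11 and the highest SPOP_CKI point for Bcl2, Bnip3 and Bnip3l.

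Of the pro-survival members, Bcl2 rose, Bcl2l1 fell and Mcl1 gave no call. Bcl2 (ENSMUSG00000057329, mm10 chr1:106538178-106714274, minus strand), which binds BH3-only proteins at the mitochondrion and the endoplasmic reticulum, had 509, 356, 1061, 550 and 577 scaled reads in SPOP_CKI libraries 1 to 5, against 167, 141, 161, 160 and 241 in Cre_control. Every SPOP_CKI library lay above every Cre_control library, with the highest value in SPOP_CKI 3. The means were 611 ± 266 in SPOP_CKI and 174 ± 38.9 in Cre_control (SD, n = 5 each), a log2 fold change of 1.74 (SE 0.27) or 3.33-fold higher (limma adjusted p = 0.00178), with a 95% interval of 1.15 to 2.32 (intervals here are not adjusted over genes). Without SPOP_CKI 3 the difference was 1.51 on that scale (limma adjusted p = 0.000289). An annotated antisense gene, D630008O14Rik, shares 6.09% of the exonic bases of Bcl2, and reads of the pair cannot be told apart if strand was not used in counting.

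Bcl2l1 (ENSMUSG00000007659, chr2:152780668-152831728, minus strand) encodes BCL-XL, which in mice is needed for the survival of maturing erythroid cells as well as neurons. It had 677, 1104, 165, 612 and 783 scaled reads in SPOP_CKI, against 1321, 1774, 1354, 2704 and 1397 in Cre_control. All SPOP_CKI libraries lay below all Cre_control libraries, with SPOP_CKI 3 far below the rest and Cre_control 4 far above. The means were 668 ± 339 in SPOP_CKI and 1710 ± 585 in Cre_control (SD, n = 5 each), a log2 fold change of -1.53 (SE 0.44) or 2.89-fold lower (limma adjusted p = 0.029), with a 95% interval of -2.49 to -0.57. Without SPOP_CKI 3 it was -1.09 (limma adjusted p = 0.0049). The call was lost without SPOP_CKI 4, Cre_control 1, Cre_control 2 or Cre_control 4, with log2 fold changes of -1.56, -1.61, -1.50 and -1.35 and limma adjusted p-values of 0.0517, 0.0503, 0.0627 and 0.0762. The erythroid marker sum also separated the groups without overlap, and was highest, at 25990, in Cre_control 4, the library with the highest Bcl2l1. Its part in the result was not tested.

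Mcl1 (ENSMUSG00000038612, chr3:95658788-95663176, plus strand), a short-lived protein on which cardiomyocytes depend, had the highest level per length of the pro-survival members. It had 3196, 4495, 3877, 4184 and 3210 scaled reads in SPOP_CKI, against 3922, 4576, 4708, 4250 and 3759 in Cre_control. The groups overlapped, and no library stood apart from the others. Mcl1 had a log2 fold change of -0.17 (SE 0.15; limma adjusted p = 0.43), and the 95% interval of -0.50 to 0.16 leaves out changes as large as that of Bcl2 or the fitted value of Bcl2l1. With values centred on GC content, the log2 fold change was 0.19 (limma adjusted p = 0.507).

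The pore formers gave no call, and both had their lowest value in SPOP_CKI 3. Bax (ENSMUSG00000003873, chr7:45461697-45466898, minus strand), which moves from the cytosol to the mitochondrion when cells are stressed, had 211, 374, 21.9, 319 and 85.0 scaled reads in SPOP_CKI, against 212, 216, 172, 332 and 147 in Cre_control. The SPOP_CKI libraries spread on both sides of the Cre_control range. For Bax the log2 fold change was -0.59 (SE 0.66; limma adjusted p = 0.536; 95% interval -2.05 to 0.86), and it was 0.05 without SPOP_CKI 3 (limma adjusted p = 0.93). Bak1 (ENSMUSG00000057789, chr17:27019810-27029009, minus strand), which resides in the mitochondrial membrane, had 210, 420, 1.75, 240 and 227 scaled reads in SPOP_CKI, against 261, 217, 200, 295 and 219 in Cre_control. The value in SPOP_CKI 3 came from 2 reads, while the other 4 SPOP_CKI libraries lay at or above 210. The log2 fold change was -1.16 (SE 1.14; limma adjusted p = 0.478; 95% interval -3.66 to 1.34), and without SPOP_CKI 3 it was 0.16 (limma adjusted p = 0.607). Without that library the 95% interval for Bak1 was -0.31 to 0.63. Ggnbp1, on the opposite strand, shares 25.5% of the exonic bases of Bak1, and Gm45808, on the same strand, shares 12.2% of those of Bax.

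Of the BH3-only genes, Bcl2l11 fell with all libraries, and Bbc3 and Bid passed the threshold only in some of the alternatives run. Bcl2l11 (ENSMUSG00000027381, chr2:128126038-128162547, plus strand) encodes BIM, which binds all pro-survival proteins of the family and is a known target of FOXO factors. It had 257, 198, 176, 197 and 392 scaled reads in SPOP_CKI, against 363, 381, 535, 411 and 466 in Cre_control. The SPOP_CKI libraries lay below all Cre_control libraries except SPOP_CKI 5, which lay above Cre_control 1 and Cre_control 2. The means were 244 ± 88.1 in SPOP_CKI and 431 ± 70.0 in Cre_control (SD, n = 5 each), a log2 fold change of -0.87 (SE 0.23) or 1.82-fold lower (limma adjusted p = 0.0195), with a 95% interval of -1.36 to -0.37. It was -0.77 without SPOP_CKI 3 (limma adjusted p = 0.0173). The call was lost without Cre_control 3, at -0.79 (limma adjusted p = 0.0521), and without the 3 libraries with Xist reads, at -0.75 (limma adjusted p = 0.0548).

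Bbc3 (ENSMUSG00000002083, chr7:16308393-16318205, plus strand) encodes PUMA, a p53-induced BH3-only protein. It had 63.2, 77.6, 0, 18.3 and 28.3 scaled reads in SPOP_CKI, against 109, 150, 81.6, 123 and 69.7 in Cre_control. The highest SPOP_CKI library lay above the lowest Cre_control library, and SPOP_CKI 3 had 0 reads, which allows up to 2.63 scaled reads (3 reads, counting error only). The log2 fold change was -2.41 (SE 1.0; limma adjusted p = 0.103) and depends on the pseudocount through that 0. With a pseudocount of 10 it was -1.61 (limma adjusted p = 0.0389). Without SPOP_CKI 3 it was -1.34 (limma adjusted p = 0.0252) and without the 3 libraries with Xist reads -1.69 (limma adjusted p = 0.0195). Bbc3 has a transcript GC content of 68.6%, the highest of the members, beside 58.4% for Bax, 57.6% for Bak1 and a median of 50.6% over tested genes. These 3 members of highest GC content had 21.9 scaled reads or fewer in SPOP_CKI 3. The part of GC content in their values was not tested beyond the centred fit, where Bbc3 had a log2 fold change of -1.06 (limma adjusted p = 0.185).

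Bid (ENSMUSG00000004446, chr6:120891930-120916853, minus strand), which links death receptors to the mitochondrion once cut by caspase-8, had the lowest level per length of the members in Cre_control and was level with Bbc3 in SPOP_CKI, where Bbc3 was the higher of the pair in 2 of 5 libraries. It had 37.9, 150, 28, 57.5 and 31.9 scaled reads in SPOP_CKI, against 21.2, 15.0, 21.5, 25 and 31.1 in Cre_control. All 5 SPOP_CKI libraries lay above the Cre_control median, but SPOP_CKI 3 lay below Cre_control 5. The log2 fold change was 1.12 (SE 0.49; limma adjusted p = 0.117). It was 1.32 without SPOP_CKI 3 (limma adjusted p = 0.035), 1.63 without the 3 libraries with Xist reads (limma adjusted p = 0.0328) and 0.73 without SPOP_CKI 2, the library with the highest value. In SPOP_CKI 2 and SPOP_CKI 4, the libraries with the highest Bid, the macrophage sums were also the highest, and their part in the result was not tested. Bcl2l13, on the opposite strand, shares 17.7% of the exonic bases of Bid.

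**Figure D2:**
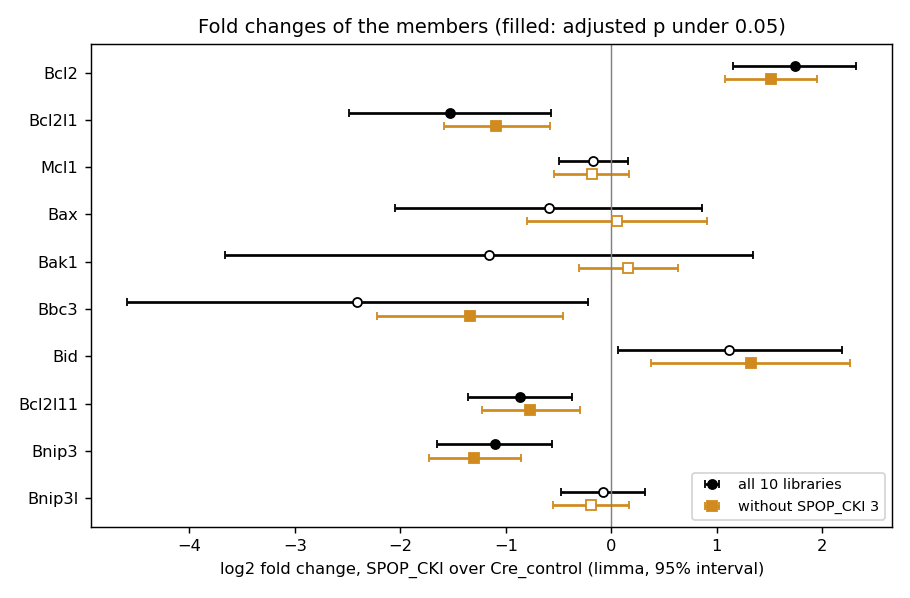
Log2 fold change of each member (SPOP_CKI over Cre_control, horizontal axis) from limma, with its 95% interval, for all 10 libraries and without SPOP_CKI 3. Filled symbols passed the adjusted threshold. The intervals are not adjusted over genes, so those of Bbc3 and Bid with all libraries miss 0 although their adjusted p-values were 0.103 and 0.117, and those of Bak1, Bax and Bbc3 narrow when SPOP_CKI 3 is left out.

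Of the mitophagy receptors, Bnip3 fell and Bnip3l gave no call. Bnip3 (ENSMUSG00000078566, chr7:138890836-138909519, minus strand), a hypoxia-induced gene in many cell types, had 2301, 2659, 5454, 2839 and 3500 scaled reads in SPOP_CKI, against 5630, 5641, 8351, 9381 and 6083 in Cre_control. All SPOP_CKI libraries lay below all Cre_control libraries, with SPOP_CKI 3 the closest to them. The means were 3351 ± 1254 in SPOP_CKI and 7017 ± 1736 in Cre_control (SD, n = 5 each), a log2 fold change of -1.10 (SE 0.25) or 2.15-fold lower (limma adjusted p = 0.0107), with a 95% interval of -1.65 to -0.56. It was -1.30 without SPOP_CKI 3 (limma adjusted p = 0.000825). The antisense gene Gm45507 shares 22.3% of the exonic bases of Bnip3. Bnip3l (ENSMUSG00000022051, chr14:66985239-67008877, minus strand), which encodes NIX and clears mitochondria from maturing red cells, had 1066, 1000, 1841, 1343 and 1685 scaled reads in SPOP_CKI, against 1491, 1411, 1476, 1298 and 1439 in Cre_control. The SPOP_CKI libraries lay on both sides of a narrow Cre_control range. Bnip3l had a log2 fold change of -0.08 (SE 0.18; limma adjusted p = 0.781), and a 95% interval of -0.48 to 0.32 that leaves out the fitted change of Bnip3.

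With values centred on GC content, the called members kept their calls, with log2 fold changes of 1.51 for Bcl2, -1.23 for Bcl2l1, -0.82 for Bcl2l11 and -1.04 for Bnip3 (limma adjusted p-values 0.0012, 0.0257, 0.0241 and 0.0146). In the authors' deposited table, made with DESeq2, the log2 fold change was 1.81 for Bcl2, -1.36 for Bcl2l1, -0.82 for Bcl2l11 and -1.07 for Bnip3, each with an adjusted p under 0.05. The authors' deposited table also lists Bid at 1.43 (adjusted p = 0.0257), and Bbc3 at -1.51 (adjusted p = 0.0943). Among all genes with a p-value there, 8.26% were higher and 8.08% lower at that threshold.

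Levels of different members were compared per kilobase of gene length. In SPOP_CKI the order was Bnip3 at 1480 ± 554 scaled reads per kilobase, Mcl1 at 1110 ± 170, Bnip3l at 359 ± 96.1, Bcl2l1 at 146 ± 73.9, Bax at 128 ± 94.9, Bak1 at 91.2 ± 61.7, Bcl2 at 66.7 ± 29.1, Bcl2l11 at 30.4 ± 11, Bbc3 at 17.7 ± 15.1 and Bid at 17.2 ± 14.4 (SD, n = 5). The ranges of neighbours in that order overlapped, apart from Mcl1 with Bnip3l and Bnip3l with Bcl2l1. In Cre_control the order was Bnip3 at 3100 ± 767, Mcl1 at 1240 ± 119, Bcl2l1 at 373 ± 128, Bnip3l at 369 ± 19.9, Bax at 137 ± 44.9, Bak1 at 99.0 ± 16.2, Bcl2l11 at 53.7 ± 8.72, Bbc3 at 50.3 ± 15.2, Bcl2 at 19.0 ± 4.25 and Bid at 6.41 ± 1.65 (SD, n = 5). There, neighbours overlapped for Bcl2l1 with Bnip3l, Bax with Bak1, and Bcl2l11 with Bbc3. Bcl2 thus stood above Bcl2l11 and Bbc3 in the SPOP_CKI order and below both in the Cre_control order. Bcl2l1 stood far above Bcl2 per length in Cre_control, and the distance between them was smaller in SPOP_CKI.

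**Figure D3:**
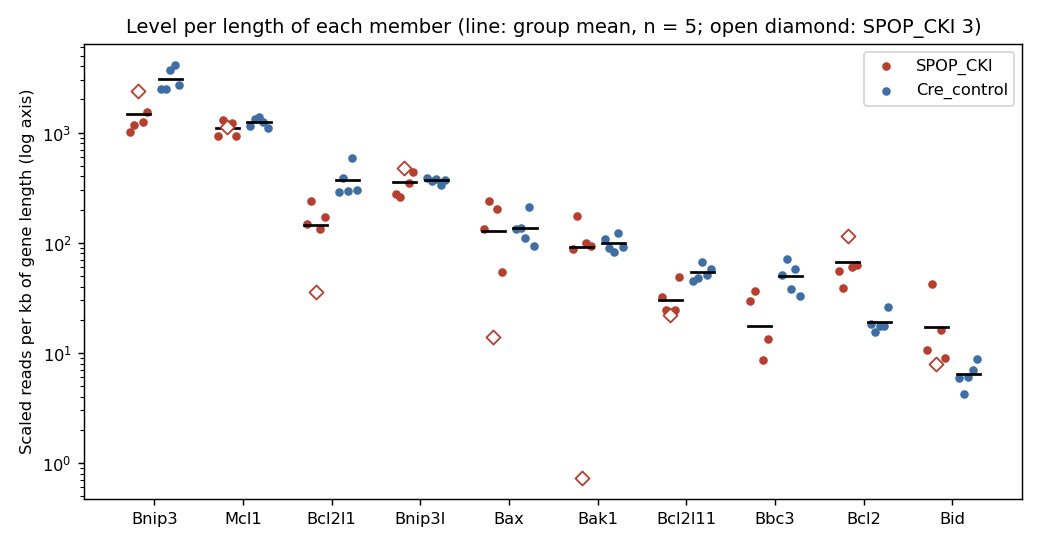
Scaled reads per kilobase of gene length for each member (log axis) in every SPOP_CKI and Cre_control library, ordered by the Cre_control mean. Lines are group means of 5 libraries, open diamonds are SPOP_CKI 3, and the Bbc3 value of 0 in SPOP_CKI 3 is not drawn on the log axis.

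Ratios between members within a library do not depend on the scaling of that library, and are given as a description with no test. They are not free of the library's GC dependence where the members differ in GC content. Bax has a transcript GC content of 58.4% and Bcl2 of 45.3%, and the part of GC content in the ratios was not tested. The ratio of Bnip3 to Bnip3l was 2.16, 2.66, 2.96, 2.11 and 2.08 in SPOP_CKI, against 3.78, 4.0, 5.66, 7.23 and 4.23 in Cre_control. The groups did not overlap, and SPOP_CKI 3 was the highest library of its group. The ratio of Bax to Bcl2 was 0.416, 1.05, 0.0206, 0.580 and 0.147 in SPOP_CKI, with a median of 0.416, against 1.27, 1.53, 1.07, 2.08 and 0.609 in Cre_control, with a median of 1.27. Here the groups overlapped, because Cre_control 5 lay below SPOP_CKI 2. The ratio of Bcl2l11 to Mcl1 had a median of 0.0471 in SPOP_CKI and 0.0968 in Cre_control, with overlap. The ratio of Bcl2l11 to Bcl2l1, both of which fell, had a median of 0.381 in SPOP_CKI and 0.275 in Cre_control, with overlap and its highest value, 1.07, in SPOP_CKI 3.

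**Figure D4:**
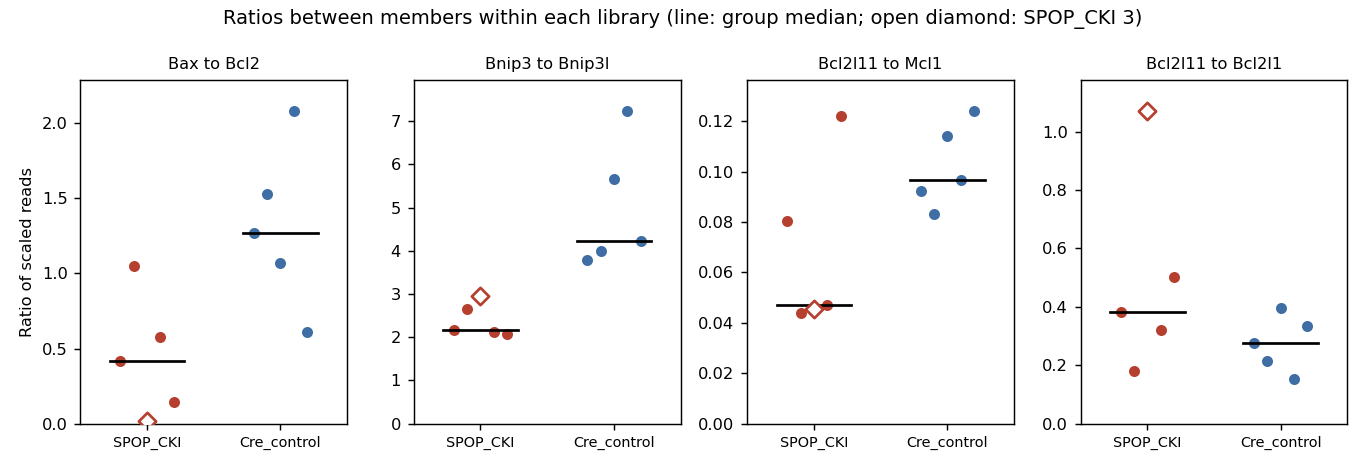
Ratios of scaled reads between pairs of members (vertical axes) within each SPOP_CKI and Cre_control library. Lines are group medians and open diamonds are SPOP_CKI 3; Bnip3 to Bnip3l separates the groups, while the other ratios overlap.

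Likeness of profile was measured as the root mean square difference between log2(value + 1) profiles, each centred on its mean over the 10 libraries, among tested protein-coding genes. These profiles share the libraries and their GC dependence. The genes most like Bcl2 were Snap91 at 0.26 and Ppp1r3c at 0.276, beside a median of 1.12 over other genes. Those most like Bcl2l1 were Lemd2 at 0.185 and Mnt at 0.246, beside a median of 1.13. Those most like Bcl2l11 were Dcaf6 at 0.16 and Cnnm3 at 0.162, beside a median of 0.734, and those most like Bnip3 were Lmo1 at 0.221 and Crbn at 0.223, beside a median of 0.852. Among the called members, Bcl2l11 and Bnip3 were closest to each other, at 0.514, and Bcl2 was at 1.41 to 1.96 from the other called members.

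The rest of the family was mostly of low abundance. Of 17 other BCL2 family genes, 16 were in the table and 10 passed the filter on low values. Of those 10, 1 rose and 1 fell, beside 10.0% and 12.3% of tested genes, at a median log2 fold change of -1.19 with all libraries. Without SPOP_CKI 3 the counts were 1 and 3, beside 13.7% and 17.3% of tested genes, and the median was -0.45. Bmf, a BH3-only gene, averaged 81.5 ± 38.3 scaled reads in SPOP_CKI and 192 ± 98.5 in Cre_control (SD, n = 5 each), a log2 fold change of -1.28 (SE 0.42; limma adjusted p = 0.0469). Bnip2, a BCL2-interacting gene, averaged 2004 ± 449 in SPOP_CKI and 1346 ± 174 in Cre_control (SD, n = 5 each), a log2 fold change of 0.56 (SE 0.17; limma adjusted p = 0.037). Both calls were lost with GC centring, with no filter on low values and without the 3 libraries with Xist reads, and that of Bmf also with edgeR. They were also lost when single libraries were left out: Bmf without SPOP_CKI 1 or any Cre_control library, and Bnip2 without SPOP_CKI 4 or Cre_control 1, 3, 4 or 5. Without SPOP_CKI 3, Bik and Hrk, both BH3-only genes chosen here after their values were seen, had log2 fold changes of -1.15 and -1.78 (limma adjusted p = 0.00897 and 0.0442).

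Caspases, other genes of the mitochondrial death machinery, inhibitors of apoptosis and death receptor genes were examined next. Of 17 caspases and other genes of the mitochondrial death machinery, 1 fell and none rose in the limma fit with all libraries, at a median log2 fold change of -0.14, beside 12.3% of tested genes lower and 10.0% higher. At an unadjusted p under 0.05 the limma counts were 1 higher and 3 lower. At an adjusted p under 0.05, edgeR called 0 higher and 1 lower, and DESeq2 1 and 1. Without SPOP_CKI 3 limma called 0 higher and 3 lower, without the 3 libraries with Xist reads 1 and 4, and with array weights 1 and 2. Over all tested genes the shares were 13.7% and 17.3% without SPOP_CKI 3, and 13.7% and 17.0% without the libraries with Xist reads. Endog, a mitochondrial endonuclease, averaged 245 ± 93.2 in SPOP_CKI and 610 ± 150 in Cre_control (SD, n = 5 each), a log2 fold change of -1.37 (SE 0.29; limma adjusted p = 0.00775), which was -0.32 with GC centring (limma adjusted p = 0.613). Of 12 tested inhibitors of apoptosis and death receptor genes, none was called by limma with equal weights, edgeR or DESeq2 over all libraries, and 2 were higher at an unadjusted p under 0.05. With array weights, which give SPOP_CKI 3 little weight, limma called 4 higher. The nearest were Ripk1, a kinase of the tumour necrosis factor receptor complex, at 0.52 (limma adjusted p = 0.101), and Birc3, an inhibitor of apoptosis, at 0.58 (limma adjusted p = 0.125). Birc3 was called at 0.85 without the 3 libraries with Xist reads (limma adjusted p = 0.0168) and at 0.80 without SPOP_CKI 1 (limma adjusted p = 0.0183). In all, 3 genes of that list were higher by limma without the libraries with Xist reads and 2 without SPOP_CKI 3, and none was lower in either fit. Cflar and Tnfrsf12a, named after their values were seen, were called in each. They stood at 0.69 and 1.46 without SPOP_CKI 3 (limma adjusted p = 0.0104 and 0.0181). Without the libraries with Xist reads they stood at 0.87 and 1.53 (limma adjusted p = 0.00362 and 0.0414). Ripk1 was called in neither fit.

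Several other genes of mitophagy and autophagy fell. Of 16 mitophagy genes, 8 fell and none rose in the limma fit with all libraries, at a median log2 fold change of -0.73, where 12.3% of tested genes fell. None was higher at an unadjusted p under 0.05 or by edgeR or DESeq2. Without SPOP_CKI 3 the count was again 8, though not of all the same genes, beside 17.3% of tested genes. Without Cre_control 1 or Cre_control 4 or with GC centring it was 5. Pink1, the kinase that marks damaged mitochondria, averaged 4807 ± 2449 in SPOP_CKI and 12338 ± 2583 in Cre_control (SD, n = 5 each), a log2 fold change of -1.47 (SE 0.30; limma adjusted p = 0.00651). Ulk1, the kinase that starts autophagosome formation, averaged 732 ± 244 in SPOP_CKI and 1863 ± 185 in Cre_control (SD, n = 5 each), a log2 fold change of -1.41 (SE 0.22; limma adjusted p = 0.00197). Map1lc3a, an LC3 protein of the autophagosome membrane, had a log2 fold change of -1.78 (SE 0.54; limma adjusted p = 0.0359), and Sqstm1, the cargo receptor p62, one of -1.15 (SE 0.24; limma adjusted p = 0.00778). The call of Map1lc3a was lost without SPOP_CKI 4 or any single Cre_control library. Without SPOP_CKI 3, Pink1 was at -1.30, Ulk1 at -1.24, Map1lc3a at -1.22 and Sqstm1 at -0.92. Their limma adjusted p-values were 0.00431, 0.000553, 0.00519 and 0.00229. Their transcript GC contents were 57.2%, 57.1%, 60.9% and 53.6%, beside a median of 50.6% over tested genes. Fundc1 and Tax1bp1, lowest in GC content of the list at 43.5% and 42.8%, gave no call, at 0.64 and 0.11. The part of GC content was not tested beyond the centred fit. The other called genes of the list, named after their values were seen, were Phb2, Fkbp8, Map1lc3b and Gabarapl1. Gabarapl1 lost its call without SPOP_CKI 3 and without the 3 libraries with Xist reads (limma adjusted p = 0.0567 and 0.0817). Optn, also named after its values were seen, was called lower in those fits, at -0.70 and -0.79 (limma adjusted p = 0.0186 and 0.034).

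Factors known to control members of the family, and other targets of one of them, were read beside the members. Of 10 such transcription factors, 1 rose and 2 fell, with or without SPOP_CKI 3. Of all tested genes, 10.0% rose and 12.3% fell with all libraries, and 13.7% and 17.3% without SPOP_CKI 3. The median log2 fold change of the factors was 0.18 with all libraries. Foxo3, known to drive Bcl2l11 in several cell types, averaged 1014 ± 553 in SPOP_CKI and 2507 ± 482 in Cre_control (SD, n = 5 each), a log2 fold change of -1.44 (SE 0.31; limma adjusted p = 0.00912), which was -0.73 with GC centring (limma adjusted p = 0.0857). Mef2d had a log2 fold change of -1.03 (SE 0.26; limma adjusted p = 0.0161), which was -0.50 with GC centring (limma adjusted p = 0.0534). Hif1a, a subunit of the hypoxia-inducible factor, averaged 2829 ± 836 in SPOP_CKI and 1574 ± 461 in Cre_control (SD, n = 5 each), a log2 fold change of 0.85 (SE 0.25; limma adjusted p = 0.0327). That call was lost with GC centring, at 0.45 (limma adjusted p = 0.121), and without SPOP_CKI 4, Cre_control 1, Cre_control 2 or Cre_control 4. Of 13 tested hypoxia-response genes, 2 rose and 2 fell, beside 10.0% and 12.3% of tested genes, at a median of 0.25. Without SPOP_CKI 3 the counts were 4 and 2, beside 13.7% and 17.3%. P4ha1, a collagen prolyl hydroxylase subunit, had a log2 fold change of 1.83 (SE 0.26; limma adjusted p = 0.00122) and Egln3, an oxygen-sensing prolyl hydroxylase, one of 1.60 (SE 0.25; limma adjusted p = 0.00184). Egln1 and Ndrg1 had log2 fold changes of -0.73 and -0.57 (limma adjusted p = 0.0284 and 0.018), and -0.28 and -0.25 with GC centring (limma adjusted p = 0.499 and 0.452). The call of Egln1 was also lost without SPOP_CKI 2 or 4 or Cre_control 1, 2 or 3.

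**Figure D5:**
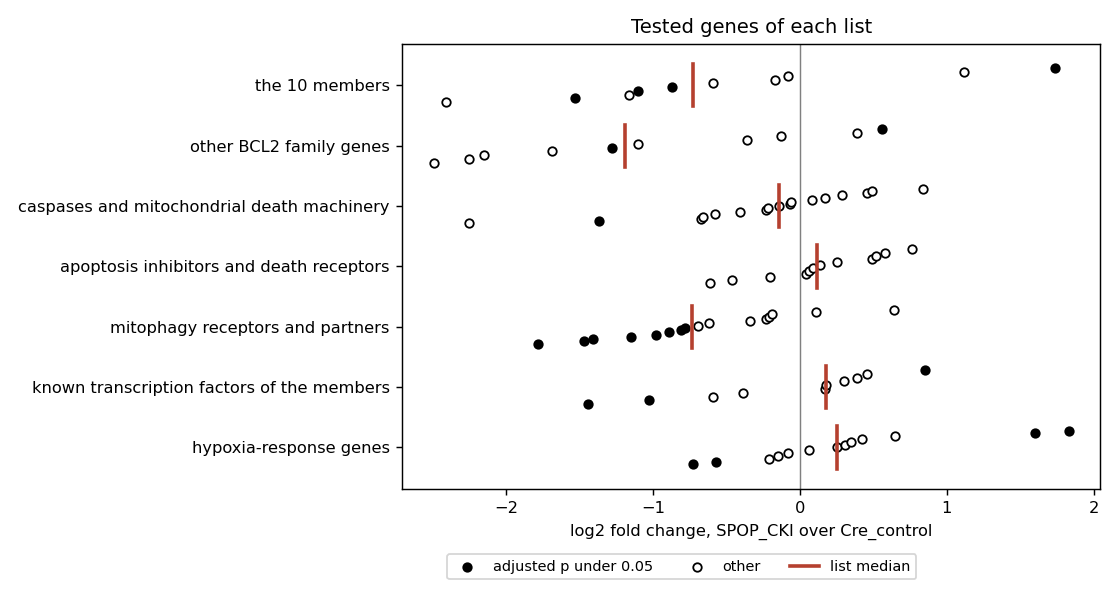
Log2 fold change (SPOP_CKI over Cre_control, horizontal axis) of every tested gene of each list, in the fit over all 10 libraries. Filled points have a limma adjusted p under 0.05 and the red line is the list median, which was -0.73 both for the 10 members and for the mitophagy list.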

How the data were processed

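Poly(A) RNA of 10 mouse hearts was sequenced, and groups follow the labels' genotype and title. Per the submitters' processing notes, counting used featureCounts 1.5.0-p3 on mm10, and DESeq2 1.20.0 made the comparison. For the aligner, annotation release and strand setting, the sources used here give nothing. The deposited per-library columns hold a scaled read signal (reads per gene over the library's size factor), and 100% of values came out as whole reads at a tolerance of 0.001 when divided by the value of 1 read. Per gene, the authors deposited their own log2 fold change with its p-value, raw and adjusted.

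The 14212 genes that reached a value of 10 in 5 or more libraries were tested with limma 3.58.1 (R 4.3.3, trend and robust) on log2(value + 1) in a model of genotype alone, two-sided, with Benjamini-Hochberg adjustment over all of them at 0.05. Folds were converted from that log2 difference. All pairs of libraries in a group differed by more than sampling noise (chi-square per degree of freedom at least 12.7). Only the limma fit with all libraries was also run on simulated counts, with means and spread taken from Cre_control alone. Those counts lack the spread of SPOP_CKI and a library such as SPOP_CKI 3, so they cannot show how the fit behaves there. Alternatives were edgeR 4.0.16 and DESeq2 1.42.0 on recovered reads, TMM scaling, quantile normalization, pseudocounts of 0.5 and 10, no filter, a filter at 50, non-robust variances, array weights, a replicate block and leaving out each library. Fits without the 3 libraries with Xist reads and with log2 values centred on transcript GC content (lowess, span 0.3, GENCODE M21) were chosen after seeing the data. Exonic overlaps with other genes are from the same annotation.

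The members and lists were chosen with earlier results of these data known, so no p-value was adjusted over a list alone and no list was tested as a set. Named genes are the 10 members, Spop, up to 4 called genes with the largest change in each list (or the 2 of smallest p if under 2 passed) and, for each called member, the 2 genes of most similar profile. A gene that this rule takes is not reported here.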

Additional observations from a re-analysis of the deposited data

Results flagged for a closer look

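For the 36 genes named by the rule, each of the 2 groups was searched for a library far from the rest on the log2(value + 1) scale (gap to the nearest library above 0.71 of the group's range), and 4 of 72 groups had one. Chance gives about 1 in 20. Bak1 stood at 1.75 scaled reads in SPOP_CKI 3, a gap of 0.862 of the range. In the same library Sqstm1 stood at 2660 scaled reads, a gap of 0.728, and Lemd2 at 97.2 scaled reads, a gap of 0.772. Bmf stood at 367 scaled reads in Cre_control 4, above the other Cre_control libraries, a gap of 0.862. Thus 3 of the 4 were in the library that stood apart for 1968 tested genes at 0. Lemd2 was named for the likeness of its profile to that of Bcl2l1, which was also lowest there, so its flag is not a separate observation.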

How the results depend on the processing

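The number of genes called was 3168 with all libraries, 5320 with array weights (SPOP_CKI 3 weighted at 0.086), and between 1963 (without Cre_control 1; 1967 without Cre_control 4) and 4400 (without SPOP_CKI 3) when each library was left out. Members called higher numbered 2 in place of 1 with quantile normalization, array weights, DESeq2 and without the 3 libraries with Xist reads, Bid being the addition, and 1 to 2 over the left-out libraries. Members called lower numbered 2 to 4 over the left-out libraries. They numbered 4 in place of 3 with a pseudocount of 10, quantile normalization and array weights, Bbc3 being the addition. Its limma adjusted p-values there were 0.0389, 0.0197 and 0.0103. Mcl1, Bax, Bak1 and Bnip3l changed direction without being called. With GC centring Mcl1 was at 0.19 and Bax at 0.01 on the log2 scale. Bax was at 0.24 with array weights. With each library left out in turn, Bax ranged from -0.95 to 0.05, Bak1 from -1.66 to 0.16 (positive without SPOP_CKI 3; 0.24 without the 3 libraries with Xist reads) and Bnip3l from -0.19 to 0.03 (0.01 without SPOP_CKI 1, 0.03 without SPOP_CKI 2). Of the members' fold changes with a library left out, 89 kept direction and side of the threshold, 2 gained a call, 5 lost it and 4 changed direction. Under the other settings the counts were 116, 8, 1 and 4. With a replicate block, 2946 genes were called, with 1 member higher and 3 lower, and no member's call changed, while Bnip2, Hif1a and Egln1 had adjusted p-values of 0.0625, 0.0549 and 0.0572. Same-numbered libraries correlated at 0.0265 to 0.159, and 2 of 5 numbers matched best with their own, so the numbers were not taken as pairs. Precision is lowest where reads are few, as for Bbc3, Bak1 and Bax in SPOP_CKI 3 at 0, 2 and 25 reads and for Bid in Cre_control at 14 to 29, although total depth was similar in all libraries.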
